A study of Mus musculus with 7 samples.

Results

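Binding of Oct1 and Oct4 in undifferentiated mouse embryonic stem cells (ESCs) was compared from 2 ChIP-seq peak lists, 1 per factor. The Oct1 list held 17709 peaks and the Oct4 list 22817. Members were the protein-coding genes with a peak of either list inside them or no more than 10 kb away on GRCm38, which were 10180 of 21883 genes. Both libraries came from ESCs of the parental genotype, from chromatin fixed with 1% formaldehyde. Oct1 was precipitated with antibody NBP2-21584 and Oct4 with antibody sc-5279. The strain or clone of the cells was not given in the sources used here. The same Oct1 antibody was used on parental cells at day 3 and day 6 of differentiation toward mesoderm, in Bmp4 and then in Rspo3 with LDN-193189, and those lists of 4867 and 7758 peaks are used below as a separate readout. Each group was 1 library, so no difference between the factors could be tested over replicates, and the antibody and the factor cannot be told apart. Intervals below are exact Clopper-Pearson 95% intervals that cover the counting of genes, peaks or promoters and nothing else. Where a count was 0, the share it allows is given separately as 3 counts of the total, which is lower than the exact upper bound.

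Oct1 (encoded by Pou2f1) and Oct4 (encoded by Pou5f1) are POU-domain transcription factors, which contact DNA through a POU-specific domain and a POU homeodomain joined by a flexible linker. Both recognise the octamer ATGCAAAT. Oct4 is a core regulator of pluripotency and often binds next to Sox2 on a composite Sox-octamer element, whereas Oct1 is expressed in most cell types and is known for its action at histone H2B, small nuclear RNA and immunoglobulin promoters. A peak absent from a list says that none was called there, not that the factor was absent.

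The promoters that follow show a sequence feature that differed between the lists. They are the 6 protein-coding promoters with an octamer under the highest-scoring Oct1 peaks that overlapped no Oct4 peak, chosen by Oct1 score after the values were seen and with 1 promoter per peak (Irf3 shares the octamer and the peak of Bcl2l12). Each is printed 5′ to 3′ on the strand of its gene from RefSeq (GRCm38.p6), with up to 40 bases on each side and stopping at the transcription start. Capitals mark the octamer, which reads ATTTGCAT where it lies in reverse.
Cables2 (chr2:180273624-180273711, minus strand): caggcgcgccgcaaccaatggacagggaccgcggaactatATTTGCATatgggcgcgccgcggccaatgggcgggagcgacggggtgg
Parp2 (chr14:50807820-50807907, plus strand): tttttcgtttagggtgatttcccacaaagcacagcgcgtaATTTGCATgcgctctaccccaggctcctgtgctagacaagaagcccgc
Alyref2 (chr1:171503339-171503426, plus strand): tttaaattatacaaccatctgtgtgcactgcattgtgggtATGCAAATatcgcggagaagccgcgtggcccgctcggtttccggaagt
Bcl2l12 (chr7:44997580-44997665, minus strand): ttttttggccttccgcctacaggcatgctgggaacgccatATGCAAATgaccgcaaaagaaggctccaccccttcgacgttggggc
Plppr2 (chr9:21936767-21936854, plus strand): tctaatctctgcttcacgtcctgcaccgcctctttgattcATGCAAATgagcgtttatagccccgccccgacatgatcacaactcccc
E2f3 (chr13:29986207-29986294, minus strand): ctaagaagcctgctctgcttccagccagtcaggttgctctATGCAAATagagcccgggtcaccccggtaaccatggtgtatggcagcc
The Oct1 peaks over these promoters ranked 69 (Cables2), 70 (Parp2, a DNA damage-responsive poly(ADP-ribose) polymerase), 71 (Alyref2, an mRNA export adaptor), 81 (Bcl2l12), 84 (Plppr2) and 99 (E2f3, a cell cycle transcription factor) of 17709. The octamers printed began between -206 bp (Cables2) and -46 bp (Bcl2l12) from the start, and 12 to 110 bp from the midpoint of the peak. The Cables2 window held further octamers at -157 and -59 bp, the Plppr2 window at -142, -71 and -36 bp, and the E2f3 window at -35 bp.

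Histone H2B promoters are classical Oct1 sites, and for that reason 3 are shown, those under the highest-scoring Oct1 peaks among the 4 that held an octamer under an Oct1 peak without Oct4 overlap (the fourth is H2bc3, under a peak that ranked 2880), again with the octamer in capitals.
H2bc14 (chr13:21721979-21722043, plus strand): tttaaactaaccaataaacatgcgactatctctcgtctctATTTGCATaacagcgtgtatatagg
H2bc8 (chr13:23571301-23571388, plus strand): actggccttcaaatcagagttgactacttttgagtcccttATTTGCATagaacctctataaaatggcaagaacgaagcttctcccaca
H2bc12 (chr13:22035751-22035820, plus strand): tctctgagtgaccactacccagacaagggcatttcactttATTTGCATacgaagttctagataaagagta
The octamer began at -25 bp in H2bc14, -59 bp in H2bc8 and -30 bp in H2bc12, under Oct1 peaks that ranked 376, 473 and 474. Of the 15 H2B genes with a RefSeq promoter window, 7 held an octamer, 9 had an Oct1 peak at the window and 5 had both. Of all 32817 RefSeq promoter windows, 1.74% held an octamer, 739 lay under an Oct1 peak without Oct4 and 821 under a shared Oct1 peak.

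For comparison, these are the 3 protein-coding promoters with an octamer under the highest-scoring Oct1 peaks that did overlap an Oct4 peak, again 1 per peak.
Fbxo48 (chr11:16951283-16951370, plus strand): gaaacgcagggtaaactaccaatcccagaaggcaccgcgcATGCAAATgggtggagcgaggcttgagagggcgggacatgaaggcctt
Elf3 (chr1:135258573-135258660, minus strand): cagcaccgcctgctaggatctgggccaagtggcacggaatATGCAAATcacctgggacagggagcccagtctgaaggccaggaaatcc
Zfp42 (chr8:43307148-43307235, minus strand): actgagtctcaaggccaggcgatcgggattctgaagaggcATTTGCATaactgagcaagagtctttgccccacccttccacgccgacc
Their Oct1 peaks ranked 87 (Fbxo48), 101 (Elf3, an epithelial ETS factor) and 119 (Zfp42, the pluripotency marker also called Rex1). In the Oct4 list the best peak of Zfp42 ranked 42, that of Elf3 ranked 698 and that of Fbxo48 ranked 4534 of 22817.

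Across all RefSeq promoter windows (250 bases before to 50 after the start), the octamer was found under Oct1 peaks and not under the Oct4 peaks that lacked Oct1. The search was for ATGCAAAT on both strands without mismatch. Of 32817 windows, 570 (1.74%, interval 1.60 to 1.88) held it. Under Oct1 peaks without Oct4, 67 of 739 windows held it (9.07%, 7.10 to 11.4). Under Oct1 peaks that overlapped an Oct4 peak, the count was 30 of 821 (3.65%, 2.48 to 5.18). Under Oct4 peaks without Oct1, it was 0 of 399, which allows a share of up to 0.752%. The intervals of these 3 classes did not overlap each other. Windows of neighbouring starts can overlap, so the 739 windows belonged to 670 genes. The exact interval of the last (up to 0.920%) also lay below that of all windows. How far the Oct4 list covers Oct4 binding was not tested, and 7 of 16 known Oct4-Sox2 target genes had an Oct4 peak, against 40.2% of all genes. At or above percentile 90 the count was 5 of the 16, against 7.91% of all genes. The library, the antibody and the peak calling cannot be told apart as a source of the 0 of 399. Median GC content of the windows was close in the 3 classes (55.3%, 55.7% and 55.7%, against 52.7% in all windows). Median CpG counts per window were 12, 9 and 6, and their part in the octamer shares was not tested.

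**Figure D1:**
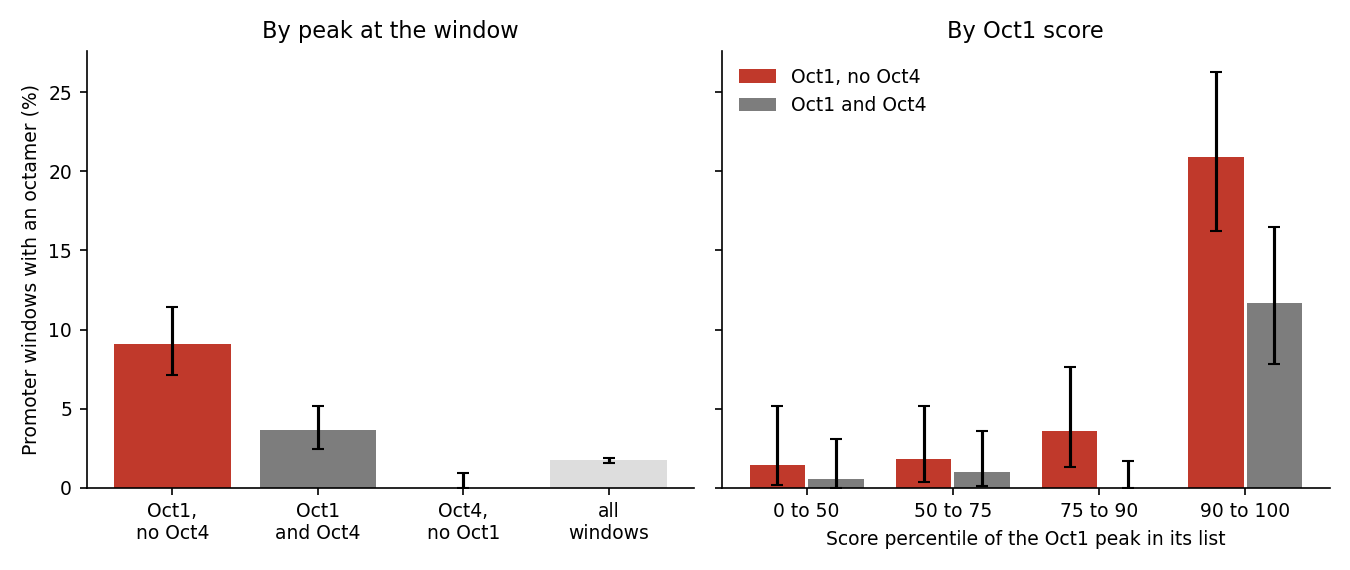
Share of RefSeq promoter windows (%) that hold the octamer, by the peak that overlaps the window (left, with all windows for reference) and by the score percentile of the Oct1 peak (right). Bars are shares and error bars exact 95% counting intervals. The octamer share was 9.07% under Oct1 peaks without Oct4 and 0 of 399 under Oct4 peaks without Oct1, and in both Oct1 classes it was highest above percentile 90 of the Oct1 scores.

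The share was highest at high Oct1 scores, with the score read as a percentile within the Oct1 list since the score has no stated unit. Among Oct1 peaks without Oct4, windows held an octamer in 2 of 137 cases (1.46%) below percentile 50, 3 of 166 (1.81%) from 50 to 75, 6 of 168 (3.57%) from 75 to 90, and 56 of 268 (20.9%, 16.2 to 26.3) above 90. Among shared peaks the counts were 1 of 178, 2 of 199, 0 of 213 and 27 of 231 (11.7%, 7.85 to 16.5). Within each of these score ranges the intervals of the Oct1 peaks with and without Oct4 overlapped. The same shared windows ordered by their Oct4 percentile showed no such rise, with 5.16%, 1.71%, 3.87% and 3.57%. Few windows lay under Oct4 peaks without Oct1 at high Oct4 scores, with 0 octamers in 214 windows below percentile 50, 124 from 50 to 75, 40 from 75 to 90 and 21 above 90. The last count allows a share of up to 14.3% (exact upper bound 16.1%), which is above the 11.7% of shared windows at high Oct1 scores. Of the 31 windows under the 50 highest Oct1 peaks, 2 held an octamer (6.45%, 0.791 to 21.4) and 5 held ATGCNAAT (16.1%). Of the 6 windows under the 50 highest Oct4 peaks, 3 held an octamer (interval 11.8% to 88.2%).

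Counted once per genomic position, 75 octamers lay under 61 Oct1 peaks without Oct4. Their median position was -99 bp from the nearest start, and 37 lay in the last 100 bp before it. For the 26 octamers under shared peaks the median was -129 bp, and 7 lay in those last 100 bp. The middle of the promoter windows searched also lies close to -99 bp. Whether the octamers prefer a distance from the start was not tested. The 75 octamers lay at a median of 47.0 bp from the peak midpoint, against 99 bp for all positions of the same windows. Of the 75, 57 (76.0%) were within 100 bp. The 26 octamers under 25 shared peaks lay at a median of 105 bp, against 134 bp for all positions, and 12 (46.2%) were within 100 bp. Allowing any base at the fifth position (ATGCNAAT) gave 12.9% under Oct1 peaks without Oct4, 4.87% under shared peaks, 3 of 399 windows (0.752%) under Oct4 peaks without Oct1 and 3.15% of all windows. Those 3 windows belonged to Thbs2, Prph2 and Gramd1a. The composite Sox-octamer element, searched only as CATTGT, 1 base of any kind and ATGCAAAT without mismatch, was found in 0 of 32817 windows. So strict a search misses variants of the element, so the 0 does not say that promoters lack it. The MORE palindrome (ATGCAT repeated head to tail), on which POU factors bind as dimers, was found in 3. Of these, 2 were windows of Kdm2b under the Oct1 peak that ranked 4, and the third, of Gm34097, lay under no peak. These counts cover promoters and not the peaks elsewhere. The promoter table held no gene of chromosome 18 and 17464 of the 21883 protein-coding genes.

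Of the 21883 protein-coding genes, 7714 had an Oct1 peak (35.3%) and 8795 an Oct4 peak (40.2%). Both lists reached 6329 genes (28.9%, 28.3 to 29.5). Oct1 alone reached 1385 genes (6.33%, 6.01 to 6.66) and Oct4 alone 2466 (11.3%, 10.9 to 11.7). The Oct4 list is longer, and with the Oct4 list reduced to as many peaks as the Oct1 list, highest scores first, the order turned to 1862 Oct1-only and 1744 Oct4-only genes. The genes in both lists were the longest, with a median of 26.4 kb against 18.1 kb for Oct1-only, 17.0 kb for Oct4-only and 12.6 kb for the 11703 genes with neither. At the edge of the window, 212 genes had their nearest Oct1 peak 9 to 10 kb away and 243 had it 10 to 11 kb away. For Oct4 these counts were 203 and 226.

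Most genes in both lists were reached by the same site. A shared site, meaning an Oct1 peak that overlapped an Oct4 peak, was present at 5439 of the 6329 (85.9%), and 890 (14.1%) were in both lists through separate sites. Oct1 peaks without an Oct4 overlap were also present at 2994 of them and Oct4 peaks without an Oct1 overlap at 3933. Over the 10577 overlapping pairs the midpoints lay a median of 55 bp apart, and 69.8% were within 100 bp. Spearman's rank correlation between the factors was 0.51 over these pairs and 0.44 over the best scores of the 6329 genes, as a description over points that share their position and come from 1 library each.

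The best Oct1 peaks of Oct1-only genes had a median rank close to that of genes in both lists, while the best Oct4 peaks of Oct4-only genes ranked lower. The median best percentile was 68.3 for Oct1-only genes and 69.7 for the Oct1 peaks of genes in both lists. For Oct4 it was 41.3 in Oct4-only genes and 76.1 in genes in both lists. Oct1-only genes held a mean of 1.17 Oct1 peaks, against 2.29 in genes in both lists. Oct4-only genes held a mean of 1.35 Oct4 peaks, against 2.93. The best of more peaks tends to rank higher by construction, and the part of peak number in these percentiles was not tested. An Oct1 peak at or above percentile 90 was present at 308 of 1385 Oct1-only genes (22.2%, 20.1 to 24.5) and at 20.4% of genes in both lists. An Oct4 peak at or above percentile 90 was present at 119 of 2466 Oct4-only genes (4.83%, 4.01 to 5.75) and at 25.5% of genes in both lists. At percentile 99 the Oct1 shares parted, with 60 Oct1-only genes (4.33%, 3.32 to 5.54) against 134 genes in both lists (2.12%, 1.78 to 2.50). For Oct4 they were 9 Oct4-only genes (0.365%, 0.167 to 0.692) against 179 genes in both lists (2.83%, 2.43 to 3.27). No peak of the other factor lay within 50 kb of 562 Oct1-only genes (40.6%) and of 935 Oct4-only genes (37.9%).

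**Figure D2:**
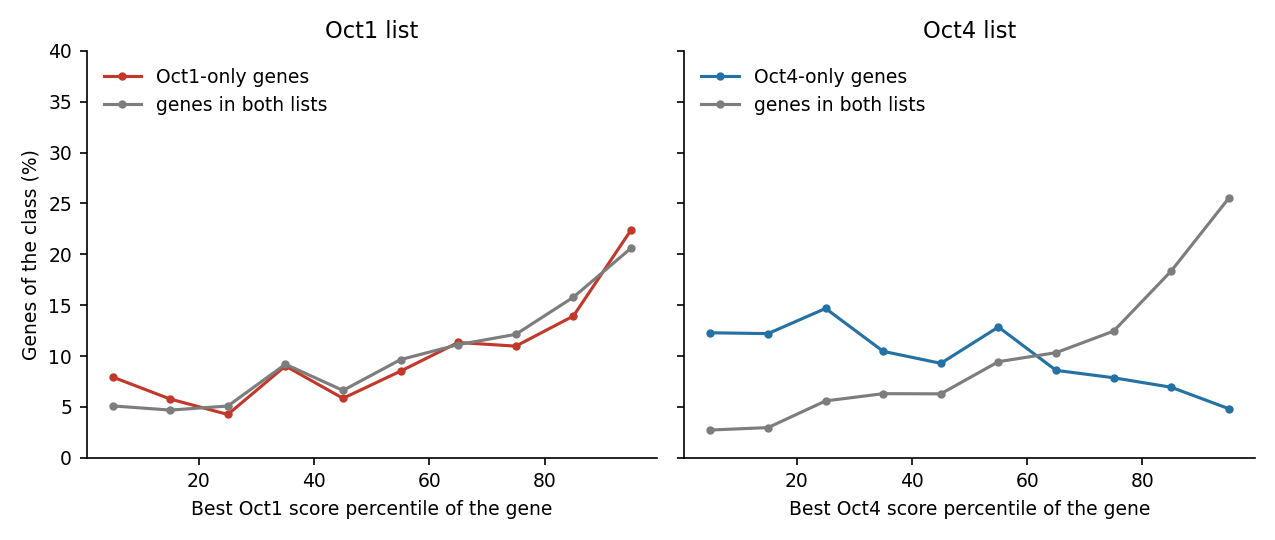
Share of genes (%) by the percentile of their best peak in the Oct1 list (left) and in the Oct4 list (right), in steps of 10 percentile points, for genes in 1 list only (coloured) and in both lists (grey). The Oct1 lines run close together, with medians of 68.3 and 69.7, whereas Oct4-only genes lie at lower percentiles than genes in both lists, with medians of 41.3 and 76.1. Genes in both lists held more peaks per gene (means of 2.29 against 1.17 for Oct1 and 2.93 against 1.35 for Oct4).

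The 12 Oct1-only genes named by score, with 1 gene per peak (so that Kcnk4 and Hes5, which share the peaks of Catsperz and Pank4, are not counted again), ran from 72304 (rank 5) to 7212 (rank 52), with the nearest Oct4 peak 13160 to 166020 bp away. The peak lay within 1 kb of an end of the gene at 7 of the 12, against 10.4% of all Oct1 peaks without Oct4, and within 1 kb of a RefSeq start of the gene at 5 of the 9 that have one in the table. The 12 lie by choice in or within 10 kb of a coding gene, as do 68.9% of all Oct1 peaks without Oct4, so the shares have unlike bases. Crlf2, a subunit of the thymic stromal lymphopoietin receptor, held the peak chr5:109556691-109559100 (rank 5). Acsl3, a long-chain acyl-CoA synthetase, held chr1:78657411-78658260 (rank 8), with its midpoint 10 bp from the RefSeq start. Plekhg2, a guanine nucleotide exchange factor, had its peak (rank 14) at -223 bp. Ahcy, which hydrolyses S-adenosylhomocysteine and was described earlier as an Oct1 target, had its peak (chr2:155074131-155074920, rank 34) at -28 bp. The peak at -43 bp of Pank4 (chr4:154963701-154964460, rank 41) also put the Notch target Hes5 in this class. Tet2, a 5-methylcytosine dioxygenase, had its peak (chr3:133543931-133544690, rank 52) 80 bp after a RefSeq start. Thra, the thyroid hormone receptor alpha, had its peak (rank 31) inside the gene and Sntb2, a syntrophin, had it (rank 51) 74 bp outside. Catsperz, of the sperm calcium channel, and Rdm1 ranked 19 and 23. The predicted genes Gm20783 and LOC666331, at ranks 10 and 50, may share reads with similar copies and are uncertain.

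The 12 Oct4-only genes named by score, again with 1 gene per peak, ran from a score of 1173 (rank 40) to 479 (rank 314), and 1 of them, Mc3r (a melanocortin receptor), had its peak within 1 kb of an end, at -127 bp, against 7.16% of all Oct4 peaks without Oct1. The bases differ here too, since 75.4% of all Oct4 peaks without Oct1 lay in or within 10 kb of a coding gene. By RefSeq starts, 3 of the 10 with a start in the table were within 1 kb, namely Mc3r, Cnpy1 (53 bp) and Zfp874b (143 bp). Arhgap21, a GTPase-activating protein, held its peak (chr2:20899841-20900390, rank 54) 67606 bp after the start, with the nearest Oct1 peak 381930 bp away. Prr5l, an mTORC2-binding protein, held its peak (chr2:101722851-101723350, rank 53) 74607 bp after the start. Cnpy1 held its peak (rank 60) at a RefSeq start inside the gene, and Hsd17b14, a hydroxysteroid dehydrogenase, had its peak (rank 49) 3349 bp outside. Gsx2, a homeobox gene of the ventral forebrain, had its peak (rank 176) 7397 bp outside, and Wdr7 (rank 87), Evi2 (rank 314) and the olfactory receptor Olfr1258 (rank 265) complete the list with 3 repeat-family genes. Those 3, Duxf3 (rank 40) of the Dux array and the zinc finger genes Zfp993 (rank 236) and Zfp874b (rank 314), sit among near-identical copies, so their peaks are uncertain.

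Over the whole lists, 10461 of 17709 Oct1 peaks overlapped an Oct4 peak and 10490 of 22817 Oct4 peaks overlapped an Oct1 peak. The 5 highest Oct1 peaks lay at Ndufa4l2 (a homologue of a respiratory chain subunit), Polr2a (the largest subunit of RNA polymerase II), Zmiz2, Kdm2b (a histone demethylase and Polycomb partner) and Crlf2. The first 2 of these overlapped an Oct4 peak and the other 3 did not, although Zmiz2 and Kdm2b had Oct4 peaks elsewhere in their windows. The 5 highest Oct4 peaks all overlapped an Oct1 peak. They lay on chromosome 17, 104609 bp from the nearest protein-coding gene (Esp38), within Camta1, within Sfi1, within Npas4 (an activity-dependent transcription factor) and 236451 bp from Nphp4. RefSeq places a ribosomal RNA pseudogene, Rn18s-rs5, under the chromosome 17 peak, and Sfi1 is present in many copies in the mouse genome. Reads from other copies may be counted at both, so these peaks and their scores are uncertain.

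Where both lists reached a gene, the rank differed by more than 50 percentile points in favour of Oct1 at 280 genes (4.42%) and in favour of Oct4 at 408 (6.45%). The largest excess of Oct1 was at Fam219a, with its Oct1 peak at percentile 99.8 and its Oct4 peak at 2.11, on separate sites. Prox2, a homeobox gene whose promoter held an octamer at -76 bp, had 99.2 for Oct1 and 1.98 for Oct4. Csrnp3, Exoc2, Dpysl2 (an axon guidance protein) and Epha8 (an ephrin receptor) followed, with Oct1 at 96.7 to 99.3 and Oct4 at or below 2.58. The largest excess of Oct4 was at Scp2, a sterol carrier protein, with 0.359 for Oct1 and 91.0 for Oct4. Caly, a vesicle protein of neurons, had 12.2 and 99.7. Irgc1, Miga2, Olfr523 and Napa lay between, with Oct4 at 92.3 to 96.3 and Oct1 at 2.18 to 9.57. At 1 of the 6 Oct1-led genes and 0 of the 6 Oct4-led genes the leading peak lay within 1 kb of an end of the gene. Within 1 kb of a RefSeq start of the gene it lay at 3 of the 5 Oct1-led genes with one (Fam219a at -67 bp, Prox2 at -84 bp and Csrnp3 at 55 bp) and at 0 of the 5 Oct4-led genes with one. Long genes held the most peaks of 1 factor without the other. Camta1, a calmodulin-binding transcription activator, had 50 peaks of each list, of which 21 Oct1 peaks and 22 Oct4 peaks had no overlap. Rbfox3, a neuronal splicing factor, had 48 Oct1 and 79 Oct4 peaks, with 3 and 34 not overlapping. Cdh23, a cadherin of hair cells, had 17 and 36, with 5 and 24 not overlapping. Sez6l had 11 of 23 Oct1 peaks without Oct4 and 4 of 17 Oct4 peaks without Oct1. Slc39a11, Ccdc60 and Cdh4 had 11, 9 and 9 Oct1 peaks without Oct4, and Zfp469 and Gse1 had 22 and 21 Oct4 peaks without Oct1.

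The gene lists below were chosen with earlier results of these data known, and their counts are read against the shares over all genes, which were 28.9% in both lists, 6.33% Oct1-only and 11.3% Oct4-only. Histone genes, most of which lie in a few clusters, had no Oct4-only member and many Oct1-only members. Of 17 H2B genes, 8 were Oct1-only, 6 were in both lists and 0 were Oct4-only, and 13 had an Oct1 peak at or above percentile 90. Of 17 H2A genes, 9 were Oct1-only and 3 in both. Of 12 H3 genes, 6 were Oct1-only and 5 in both. Of 12 H4 genes, 3 were Oct1-only and 6 in both. Of 10 linker histone H1 genes, 0 were Oct1-only and 7 were in both. The 8 Oct1-only H2B genes rested on 7 peaks and the 9 H2A genes on 11. The best Oct1 peak of H2bc6, H2bc7 and H2bc8 was 1 and the same, with a score of 1711, and that of H2bc13 and H2bc14 had a score of 914. H2bc4 had an Oct1 score of 2245 (percentile 99.2) and an Oct4 score of 166 (percentile 63.6), and H2bc3 had 1988 (99.1) and 1143 (99.8). The classes depended on the window. With 50 kb in place of 10 kb, 2 H2B and 2 H2A genes were Oct1-only, where all genes had 5.56%. Histone genes have similar sequences, and how reads with several matches were treated is not given in the sources used here.

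**Figure D3:**
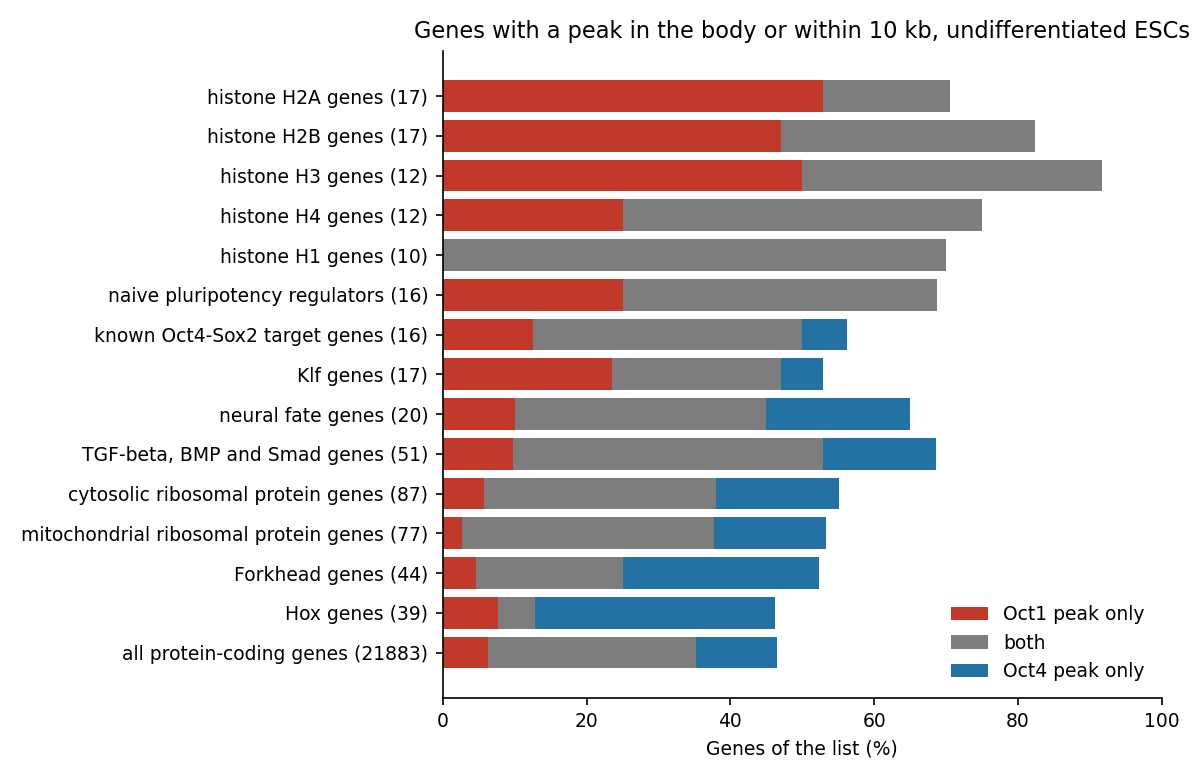
Share of the genes of each list (%, number of genes in parentheses) with an Oct1 peak only (red), peaks of both factors (grey) and an Oct4 peak only (blue), with all protein-coding genes in the lowest bar. Histone H2A, H2B and H3 genes have large Oct1-only shares and no Oct4-only share, whereas Hox and Forkhead genes have Oct4-only shares above that of all genes in this window. With the gene body alone the Forkhead share was close to that of all genes (4 of 44, against 8.86%).

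Genes known as Oct4-Sox2 targets had Oct4 peaks about as often as all genes, but Oct4 peaks of high rank more often. Of 16 such genes, 7 had an Oct4 peak and 8 an Oct1 peak, against 40.2% and 35.3% of all genes. An Oct4 peak at or above percentile 90 was present at 5 of the 16, against 7.91% of all genes. For Oct1 the count was 4 of the 16, against 7.32%. Pou5f1 itself had 3 peaks of each list, with the best at a score of 597 for Oct1 (percentile 96.2) and 3408 for Oct4 (percentile 99.9, rank 13). Zfp42 had Oct1 at 99.3 and Oct4 at 99.8, and Fgf4 had 93.0 and 91.9. Lefty1, a Nodal antagonist, had a weak Oct1 peak (percentile 34.0) and a strong Oct4 peak (99.8). Utf1 had 80.3 for Oct1 and 36.1 for Oct4. Jarid2, a Polycomb partner, was the Oct4-only member, at percentile 29.5. Nanog and Trim8 were Oct1-only, and Sox2, Dppa3, Dppa4, Fbxo15, Rif1, Spp1 and Tdgf1 had neither. Sox2 and Nanog, where Oct4 is known to bind, thus had no Oct4 peak within 10 kb. Within 50 kb Nanog had 3 Oct4 peaks and Sox2 had 0. The classes Oct1-only and neither say no more than that no Oct4 peak was called in the window.

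Naive pluripotency regulators had 4 Oct1-only, 7 shared and 0 Oct4-only genes of 16. The Oct1-only genes were Nanog (percentile 80.8), Nr5a2 (79.5), Tfcp2l1 (3 peaks, best 75.5) and Tbx3 (19.6). None of the 4 remained Oct1-only with a window of 50 kb, and 2 genes were Oct1-only with the gene body alone. The count of Oct4-only genes was 1 with the gene body alone, with 2 kb and with the higher-scoring 50% of each list. Esrrb, a nuclear receptor of the naive network, had 12 peaks of each list, with the best at 96.5 for Oct1 and 99.8 for Oct4. Stat3, which carries the LIF signal, led in Oct1 (score 4701, percentile 99.6) over Oct4 (score 180, percentile 69.9). Prdm14 led in Oct4, with 46.6 for Oct1 and 86.7 for Oct4. Klf4, Klf5, Nr0b1, Sall4 and Sox2 had no peak of either list. Among 14 formative and primed genes, Etv5 was Oct1-only with 3 peaks (best 97.7), while Etv4, Foxd3 and Pou3f1 were Oct4-only at 25.9, 72.2 and 29.5. Of the 11 DNA methylation genes, Tet2 was Oct1-only, 8 were in both and 0 were Oct4-only.

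The 4 earlier described Oct1 targets other than histones each had an Oct1 peak at or above percentile 90, as did 7.32% of all genes. Polr2a had an Oct1 score of 124348 (rank 2) and an Oct4 score of 690 (percentile 99.5). Taf12, a subunit of TFIID, had 8028 (percentile 99.7) for Oct1 and 112 (percentile 30.8) for Oct4. Ahcy (10709) and Blcap (800, percentile 97.4) were Oct1-only.

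Among families of developmental transcription factors, Hox genes, which pattern the body axis, were Oct4-only at 13 of 39 and Oct1-only at 3 (Hoxb3, Hoxb4 and Hoxb5, which shared their best peak, percentile 74.2). The 13 rested on 8 Oct4 peaks, with a median percentile of 54.6. The Oct4-only Hox genes numbered 8 with equal numbers of peaks and 5 with the gene body alone, where all genes had 7.97% and 8.86%. Forkhead genes were Oct4-only at 12 of 44 and Oct1-only at 2. The 12 Oct4-only ones had a median percentile of 52.7 and ran from 0.907 (Foxs1) to 79.9 (Foxa2). With the gene body alone, 4 Forkhead genes were Oct4-only, a share close to the 8.86% of all genes in that setting. Klf genes had 4 Oct1-only members (Klf3, Klf10, Klf12 and Klf16) and 1 Oct4-only member (Klf17) of 17, and 2 were Oct1-only with the gene body alone (4.78% of all genes). Of 15 POU genes, Pou2f1 was Oct1-only (2 peaks, best 64.7), Pou3f1, Pou3f2 and Pou6f1 were Oct4-only and 5 were in both. Of 19 Sox genes, Sox18 and Sox21 were Oct1-only and Sox5, Sox9 and Sox10 Oct4-only.

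Several neural regulators had much higher ranks for Oct1 than for Oct4, and others the reverse. Of 20 neural genes, 7 were in both lists, 2 were Oct1-only and 4 Oct4-only. Hes5 (score 9366, percentile 99.8) and Zic1 (score 2154, percentile 99.2) were the Oct1-only genes. Pax6, an eye and forebrain regulator, had an Oct1 score of 1232 (98.4) and an Oct4 score of 71 (7.55). The proneural gene Neurog1 had 98.1 for Oct1 against 55.8 for Oct4. Neurog2, En1 and Olig2 had 9.57, 44.2 and 55.0 for Oct1 against 85.0, 93.0 and 93.0 for Oct4. En2, Otx1, Pou3f2 and Six3 were Oct4-only, at 30.8 to 55.4. Of 26 primitive streak and mesoderm genes, 9 were in both, Gata4 and Kdr were Oct1-only, and Foxa2, Foxc1 and Meox1 were Oct4-only. Dll1, a Notch ligand, had 70.8 for Oct1 and 99.8 for Oct4.

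Signalling families held genes of every class. Of 51 TGF-beta, BMP and Smad genes, 22 were in both lists and 5 were Oct1-only (the transducers Smad1 and Smad2 and the ligands Tgfb1, Inhbc and Inhbe). Another 8 were Oct4-only (the receptors Tgfbr2, Acvr2b, Acvr1c and Acvrl1 and the ligands Bmp6, Gdf1, Gdf7 and Tgfb2). Of 29 Wnt and Frizzled genes, 9 were in both, 5 Oct1-only and 6 Oct4-only. The receptor Fzd8 was Oct1-only at percentile 98.6. Of 27 FGF ligands and receptors, 10 were in both, 3 Oct1-only and 2 Oct4-only.

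Housekeeping lists held more Oct4-only than Oct1-only genes, as did all genes. Cytosolic ribosomal protein genes were Oct4-only at 15 of 87 and Oct1-only at 5, and mitochondrial ribosomal protein genes at 12 of 77 and 2. These leanings moved with the settings. With the gene body alone, 4 cytosolic ribosomal genes were Oct4-only (8.86% of all genes), and with equal numbers of peaks 6 mitochondrial ones were (7.97% of all genes). With 50 kb the order turned for the cytosolic ones, to 5 Oct4-only and 6 Oct1-only, where all genes had 9.42% and 5.56%. Oxidative phosphorylation genes were Oct4-only at 13 of 96 and Oct1-only at 4, and RNA polymerase subunit genes at 5 of 28 and 1. Large receptor families were mostly in neither list. Of 1106 olfactory receptor genes, 1015 had no peak, 40 were Oct4-only and 20 Oct1-only. The 397 Zfp genes were 38 Oct1-only and 34 Oct4-only, with 123 in both.

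Grouping all genes by symbol stem gave 165 families of at least 15 genes. More of them held more Oct4-only genes (103) than more Oct1-only genes (32), and 30 held as many of each. With equal numbers of peaks the order turned, to 56 and 75. On the Oct4 side stood Nat (acetyltransferases, 7 Oct4-only and 0 Oct1-only of 15, on 6 peaks), Phf (PHD finger genes, 7 and 0 of 22), Cdh (cadherins, 7 and 1 of 23) and Vps (vacuolar sorting genes, 10 and 1 of 35). On the Oct1 side stood the stem H, which holds histone and H2 histocompatibility genes among others (31 Oct1-only and 2 Oct4-only of 145, on 16 Oct1 peaks), Ly (5 and 0 of 25, on 3 peaks, with Ly6g6c, Ly6g6d, Ly6g6e and Ly6g6f sharing 1 of percentile 5.49), Klf and Tbc (4 and 1 of 30). Families of this size differ by few genes, and neighbours share peaks.

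By site, 7248 Oct1 peaks overlapped no Oct4 peak and 10461 did, while 12327 Oct4 peaks overlapped no Oct1 peak and 10490 did. Oct1 peaks without Oct4 lay within 1 kb of a gene start more often than the other classes. Their midpoints were within 1 kb of a RefSeq start of a protein-coding gene in 549 cases (7.57%, 6.98 to 8.21), against 578 (5.53%, 5.10 to 5.98) for shared Oct1 peaks and 357 (2.90%, 2.61 to 3.21) for Oct4 peaks without Oct1. By either end of the gene, which all genes have in the table used, the shares within 1 kb were 10.4% (9.74 to 11.2), 9.15% (8.60 to 9.72) and 7.16% (6.71 to 7.63). Within 5 kb of an end the order turned, to 23.3% for Oct1 peaks without Oct4 and 25.1% for Oct4 peaks without Oct1. Oct4 peaks without Oct1 lay more often inside protein-coding genes, in 64.5% against 53.7% for Oct1 peaks without Oct4 and 59.4% for shared Oct1 peaks. Whether these positions are exonic or intronic was not analysed here.

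**Figure D4:**
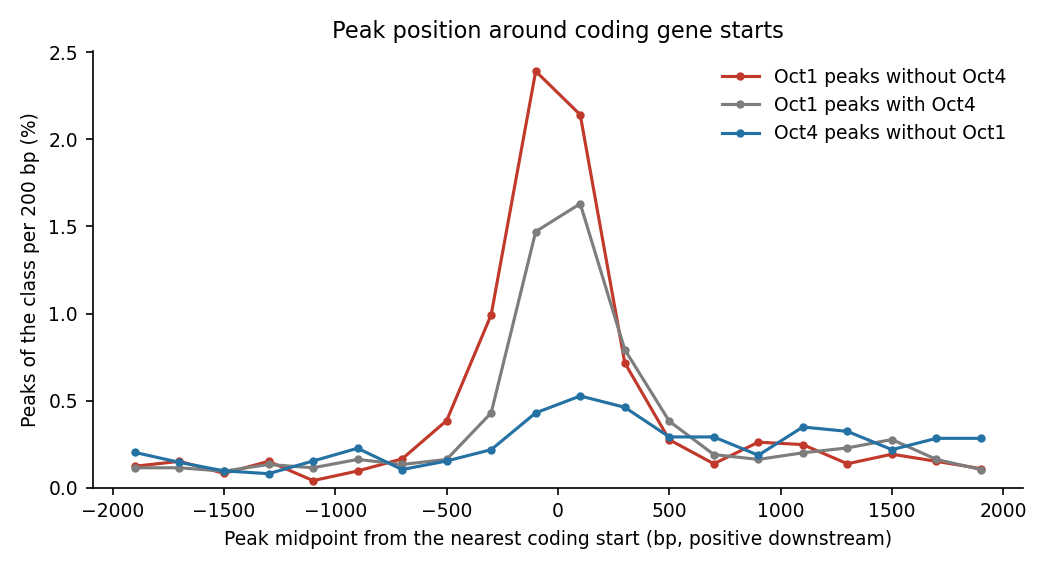
Share of the peaks of each class (%, per 200 bp) by the distance of the peak midpoint from the nearest RefSeq start of a protein-coding gene in bp, positive downstream, for Oct1 peaks without Oct4 (red), Oct1 peaks with Oct4 (grey) and Oct4 peaks without Oct1 (blue). Oct1 peaks without Oct4 reach 2.39% in the 200 bp before the start, whereas Oct4 peaks without Oct1 reach 0.527% in the 200 bp after it.

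Around the start the classes also differed in side. Of peaks within 1 kb of a start, 53.2% (48.9 to 57.4) of Oct1 peaks without Oct4 had their midpoint upstream, with a median of -16 bp. The share was 42.7% for shared Oct1 peaks (median 44 bp) and 39.2% for Oct4 peaks without Oct1 (median 100 bp). Shared sites were wider, with 13.0% of shared Oct1 peaks over 1 kb against 2.80% of Oct1 peaks without Oct4, and 15.4% of shared Oct4 peaks against 4.75% of Oct4 peaks without Oct1. The part of width in the overlap was not tested. Shared Oct4 peaks reached percentile 90 in 16.9% of cases and Oct4 peaks without Oct1 in 4.16%. For Oct1 the order was the other way, with 8.84% of shared peaks and 11.6% of peaks without Oct4. Chromosome 11 held 16.1% of shared Oct1 peaks, 11.3% of Oct1 peaks without Oct4 and 10.6% of Oct4 peaks without Oct1, and 51.3% of its 1609 genes were in both lists. Chromosome 13, which carries the main histone cluster, had 9.41% Oct1-only and 8.44% Oct4-only genes. On chromosome X, 3.93% of 966 genes were in both lists.

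Oct1 peaks at later days, in libraries that did not define the classes, were more frequent at Oct1-only than at Oct4-only genes at day 3. At day 3, 555 of 1385 Oct1-only genes (40.1%, 37.5 to 42.7) had an Oct1 peak in the same window, against 581 of 2466 Oct4-only genes (23.6%, 21.9 to 25.3), 40.5% of genes in both lists and 14.4% of genes with neither. At day 6 the shares were 51.4% (48.7 to 54.1), 50.6% (48.7 to 52.6), 56.4% and 30.4%, so the Oct1-only and Oct4-only intervals overlapped. With the higher-scoring 50% of each list they did not, at 36.0% (33.7 to 38.4) and 29.6% (27.7 to 31.5). The day 3 difference was present in each of the 4 length classes of equal size over all genes, with Oct1-only shares of 34.8% to 44.2% and Oct4-only shares of 19.7% to 26.4%. Among genes with an ESC peak at or above percentile 90, 214 of 308 Oct1-only genes (69.5%, 64.0 to 74.6) had a day 3 peak, against 30 of 119 Oct4-only genes (25.2%, 17.7 to 34.0). Genes in both lists with an Oct1 peak at or above percentile 90 were close to the Oct1-only genes, with 833 of 1293 (64.4%, 61.7 to 67.0). At day 6 these shares were 69.8%, 40.3% and 67.6%. Of the 12 Oct1-only genes named by score above, 12 had an Oct1 peak at day 3 and 11 at day 6, the exception being LOC666331. Of the 12 Oct4-only genes named likewise, 4 had one at day 3 and 3 at day 6. All Oct1 lists came from the same antibody.

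**Figure D5:**
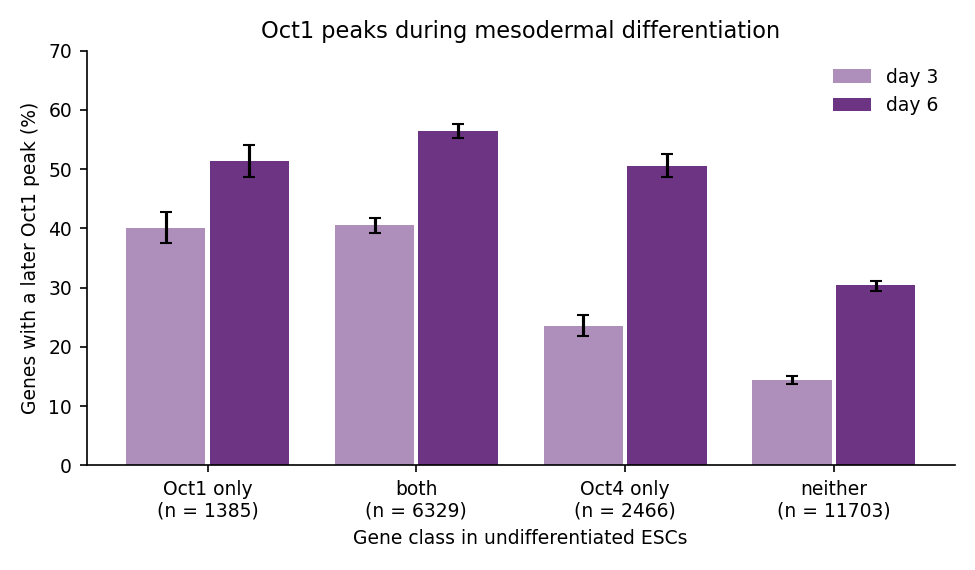
Share of genes (%) with an Oct1 peak inside or up to 10 kb away at day 3 (light) and day 6 (dark) of mesodermal differentiation, by the class of the gene in undifferentiated ESCs. Error bars are exact 95% counting intervals. At day 3 the Oct1-only share of 40.1% lies above the Oct4-only share of 23.6%, and at day 6 they are 51.4% and 50.6%.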

How the data were processed

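ChIP-seq peak lists of Oct1 and Oct4 from parental ESCs and of Oct1 at day 3 and day 6 were used. The submitters' processing notes name the build mm10 (GRCm38) and Novoalign 3.8.2. The peak caller, its threshold and the use of the inputs are not given in the sources used here. Each deposited list gave position, name and a whole-number score per peak, the authors' own value without a unit, which was used here as a rank or percentile within its list. Starts and ends were multiples of 10 bp and the narrowest peak was 500 bp, so positions are coarse. Depth is unknown.

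Peaks were joined to the RefSeq protein-coding genes of GRCm38.p6 (inside or up to 10 kb away) and to each other (overlap of at least 1 bp) with scipy 1.17.1, pandas 2.3.3 and numpy 2.4.6 under Python 3.11.15, and bedtools 2.31.1 gave the same overlap counts. A peak counts for every gene it reaches. Motifs were searched in RefSeq promoters, and the functions were tested on simulated data. With 1 library per group no test was made. Genes were named by score (the 12 highest in each single class, 1 gene per peak), by percentile difference (6 each way), by number of peaks without overlap (5 each), by the 5 highest peaks per list and by list membership. Members and lists were chosen with earlier results of these data known. Alternatives were the window, the score minimum, equal peak numbers, nearest gene, wide peaks, overlap and motif. Figures used matplotlib 3.10.9.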

Additional observations from a re-analysis of the deposited data

How the results depend on the processing

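No paired analysis was possible because each group was 1 library and no test was run. Of 185 alternative values for 38 results, 116 stayed within 1.5 times the main count or within the counting interval and 69 moved, 43 of them counts in gene lists and families. Genes in both lists numbered 4191 with the gene body alone, 11623 with 50 kb and 3648 with the higher-scoring 50% of each list. In the same 3 settings and with 2 kb, the Oct1-only share with a day 6 Oct1 peak was 41.8%, 56.8%, 36.0% and 45.4%. The Oct4-only share was 17.8%, 31.0%, 14.0% and 19% at day 3 and 41.4%, 54.0%, 29.6% and 43.3% at day 6 (48.6% with equal numbers of peaks). The Oct1-only share at day 3 was 36.5% with the gene body and 33.6% with the higher-scoring 50%. With the latter, 4624 Oct1 peaks and 7164 Oct4 peaks had no overlap, and 14.3% and 6.69% of them lay within 1 kb of a gene end. Of all peaks without overlap, 23.3% and 25.1% lay within 5 kb of one. Genes led by Oct1 numbered 152 with the gene body alone, and ATGCNAAT raised the octamer share under Oct1 peaks without Oct4 to 12.9%. For these, the cause was not tested, except that a wider window or more peaks reach more genes by construction. The octamer share restricted to coding genes (10.6%, 3.55% and 0 of 246 windows) and with equal numbers of peaks (8.97%, 3.30% and 0%) was chosen after seeing the data and kept the order of the 3 classes. The lists give no read counts, so depth could not be weighed.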
